A study of Homo sapiens with 3 samples.

Results

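The mitotic cell cycle genes described here were 36 human genes, each represented by 1 RefSeq transcript, that encode the proteins which drive entry into mitosis, build the spindle, hold and release the chromosomes and divide the cell. They were chosen by name, as listed identifiers and not by a rule on their measured values, out of 25443 RefSeq transcripts that had at least 1 read in any sample. Earlier results of these data were known when they were chosen. All 36 were found in all 3 samples. The cells were HEK293, a human embryonic kidney line grown as an adherent monolayer, which the study calls HEK293T. The negative control was grown in normal medium, the DMSO sample in medium with 1 mM dimethyl sulfoxide (the solvent), and the BDE-209 sample in medium with 1 µM BDE-209, the fully brominated diphenyl ether flame retardant, dissolved in 1 mM DMSO. Every sample was kept in culture for 48 h, and polyA-selected RNA was sequenced.

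Each group was 1 sample, so no difference below has a replicate check. A test on the reads of a pair of libraries compares those libraries and not the conditions, and its intervals cover counting error only. Levels are RPKM, reads scaled by the length of the transcript and by a read total of the library, which can be compared between genes. The totals recovered from the RPKM values were 4843623 reads for the negative control, 4782043 for DMSO and 4676792 for BDE-209. They are smaller than the mapped read counts listed in the paper, where BDE-209 lies above DMSO. Ratios close to 0 depend on the totals used, and the counting intervals do not cover this. With a mean of at least 10 reads, 34 of the 36 genes were tested among 16035 transcripts. In these bulk samples, fewer cells in mitosis and less mRNA per mitotic cell cannot be told apart. Of 5 genes known to mark this line (VIM, KRT8, KRT18, NES and NEFM) all had reads in every sample, between 1.44 RPKM (NES) and 299.1 RPKM (VIM). Of the markers of other cell types, the hepatocyte gene ALB had 1 read in each sample, the endothelial gene PECAM1 lay between 0.242 and 0.438 RPKM and the fibroblast gene COL1A1 between 4.44 and 5.19 RPKM.

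A dividing cell enters mitosis when cyclin B and cyclin A activate the kinase CDK1. The spindle checkpoint then holds the anaphase-promoting complex, a ubiquitin ligase, in check until every kinetochore is attached to microtubules. Once it is released, CDC20 directs the complex to securin and the cyclins, separase opens the cohesin rings, and the cell divides at a central spindle. The genes for these proteins are transcribed late in the cell cycle, largely through the MuvB complex with B-MYB and FOXM1, which reads a short promoter element called the CHR (cell cycle genes homology region), often beside CCAAT boxes bound by NF-Y. HEK293 cells divide continuously in culture.

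The promoters of 7 of the genes are shown because mitotic genes are known to share short elements there. Cyclin B1, CDC20, PLK1 and AURKB stand for the central regulators, and TOP2A, CENPF and ECT2 were added after their values had been seen. The sequences are from RefSeq's promoter table (built on GRCh38.p14) and were placed in GRCh37, the build of the files, by an exact match. They lie at chr5:68462817-68462961 (CCNB1, + strand), chr1:43824492-43824651 (CDC20, + strand), chr16:23690050-23690189 (PLK1, + strand), chr17:8113573-8113703 (AURKB, - strand), chr17:38574149-38574308 (TOP2A, - strand), chr1:214776378-214776537 (CENPF, + strand) and chr3:172468356-172468471 (ECT2, + strand). Each run starts 160 bases before the RefSeq start and reads 5′ to 3′ on the strand of the gene. It stops before any GENCODE exon of the gene that overlaps it, retained-intron transcripts left aside. Such a transcript covers the run of PLK1 and the last bases of that of CENPF. The runs of PLK1 and AURKB lie inside the annotated span of the gene, which for AURKB is chr17:8108051-8113918. Capitals mark the CHR letters TTTGAA or TTTAAA and the CCAAT box on either strand, so that TTCAAA and ATTGG are matches on the opposite strand.
CCNB1: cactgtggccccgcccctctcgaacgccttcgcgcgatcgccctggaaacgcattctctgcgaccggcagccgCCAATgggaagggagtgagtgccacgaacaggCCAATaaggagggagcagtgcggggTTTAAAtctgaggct
CDC20: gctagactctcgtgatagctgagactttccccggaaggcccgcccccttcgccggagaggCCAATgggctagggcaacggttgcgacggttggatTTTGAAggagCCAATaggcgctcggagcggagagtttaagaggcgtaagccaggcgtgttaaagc
PLK1: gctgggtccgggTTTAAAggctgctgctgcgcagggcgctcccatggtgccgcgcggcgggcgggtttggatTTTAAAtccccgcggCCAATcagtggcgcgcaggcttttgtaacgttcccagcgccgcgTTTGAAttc
AURKB: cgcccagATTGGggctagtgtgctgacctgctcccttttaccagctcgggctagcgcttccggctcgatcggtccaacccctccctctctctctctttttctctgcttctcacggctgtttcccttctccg
TOP2A: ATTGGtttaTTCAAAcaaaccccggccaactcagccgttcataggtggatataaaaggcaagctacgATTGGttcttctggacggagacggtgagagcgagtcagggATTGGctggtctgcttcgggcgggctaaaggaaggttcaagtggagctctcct
CENPF: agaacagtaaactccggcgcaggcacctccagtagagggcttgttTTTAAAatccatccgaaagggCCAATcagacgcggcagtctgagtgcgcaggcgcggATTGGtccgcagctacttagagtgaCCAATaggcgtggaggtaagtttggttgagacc
ECT2: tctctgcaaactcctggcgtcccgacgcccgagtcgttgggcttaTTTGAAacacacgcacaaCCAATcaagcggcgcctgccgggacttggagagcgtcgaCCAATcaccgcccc

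Of the 36 genes, 32 had an entry in the promoter table, and AURKA, BIRC5, TPX2 and TTK were the others. Over the 300 bases from 250 before to 50 after the start, TTTGAA was present in 21 of the 32 promoters (65.6%), against 15.2% of all 35116 promoters in the table. TTTAAA, which reads the same on both strands, was present in 11 (34.4%, against 12.2%). The CCAAT box was present in 25 (78.1%, against 34.6%), and 16 of the 32 held at least 2 of them (10.8% of all promoters did). A CHR of either form together with a CCAAT box was found in 21 of the 32 (65.6%), against 9.27% of all promoters. The matches lay near the start: 15 of the 28 TTTGAA matches (53.6%) began within the last 70 bases before it, where 19.7% of the TTTGAA matches of all promoters lay, and their median position was -29, in bases from the start. CCNB1 carried TTTAAA with a pair of CCAAT boxes, CDC20 carried TTTGAA between its CCAAT boxes, and AURKB held a single CCAAT box with neither form of the CHR in the 300 bases. A match to these letters is a description of the sequence and does not show that a factor binds there.

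**Figure D1:**
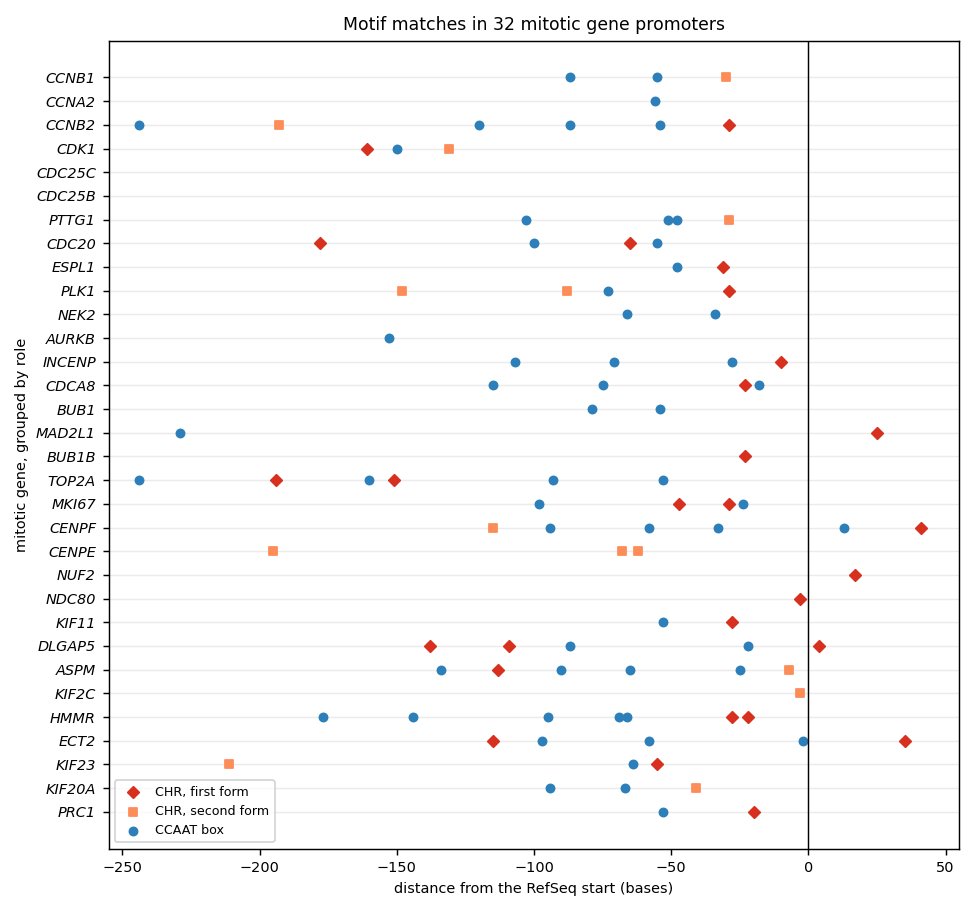
Matches to the CHR (first form, red diamonds; second form, orange squares) and to the CCAAT box (blue circles) in the promoters of 32 mitotic genes, one gene per row grouped by role, against the distance in bases from the RefSeq start. The median position was -29 for the first form of the CHR and -70 for the CCAAT box, in bases from the start.

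The promoter letters divided the genes into sets whose ratios overlapped. The 20 tested genes with TTTGAA had a median log2 ratio of BDE-209 over DMSO of -0.05 (range -0.15 to 0.20), and the 11 without it one of 0.03 (range -0.55 to 0.29). For DMSO over the negative control the medians were 0.02 and -0.07, and for BDE-209 over the negative control 0.05 and -0.03.

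The levels of the genes were high and differed far more between genes than between samples. TOP2A, the topoisomerase that untangles replicated DNA, had the highest level, with a mean over the 3 samples of 147.1 RPKM. It was followed by PTTG1 (securin) at 129.4, TPX2 (an activator of Aurora A) at 128.3 and MKI67 (the proliferation antigen Ki-67) at 113.1 RPKM. The sum over the 36 genes was 2099 RPKM in the negative control, 2078 in DMSO and 2079 in BDE-209, and their median level was 50.3, 49.96 and 51.5 RPKM.

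**Figure D2:**
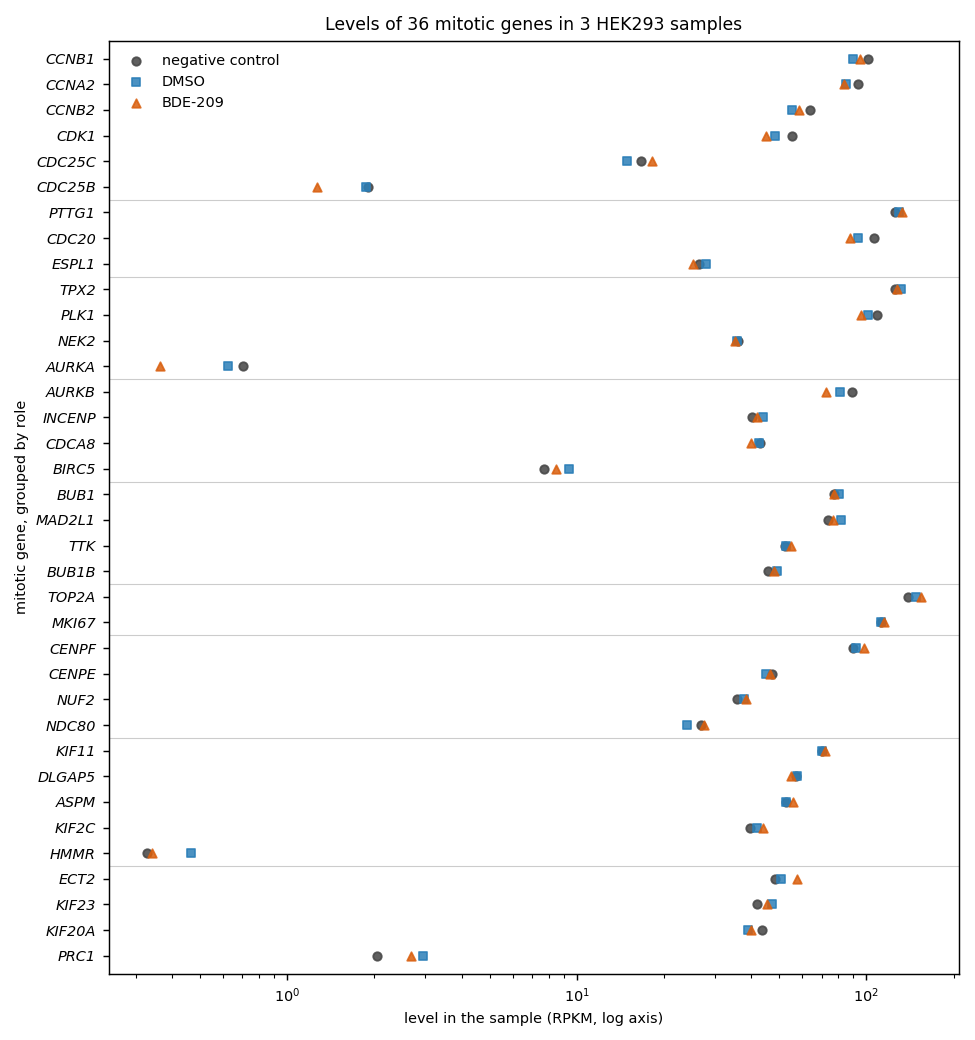
Level in RPKM on a log axis of each of the 36 mitotic genes (rows, grouped by role and divided by grey lines) in the negative control (grey circles), DMSO (blue squares) and BDE-209 (orange triangles), with 1 sample per group. Most genes lie between 15 and 154 RPKM with their 3 samples close together, and 5 (AURKA, HMMR, CDC25B, PRC1 and BIRC5) lie below 10 RPKM.

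Low levels were found mainly among genes with 3 or more listed transcripts. AURKA, the kinase that matures spindle poles, had 0.704 RPKM in the negative control, 0.624 in DMSO and 0.365 in BDE-209, from 8, 7 and 4 reads. The files list 6 transcripts for AURKA, the highest at 1.21 RPKM (15 reads) in the negative control. HMMR, a microtubule-binding spindle protein with 3 listed transcripts, had 0.329, 0.466 and 0.340 RPKM from 5, 7 and 5 reads. No change in either gene was detectable at this depth. Among the 23 genes listed with 1 transcript, the lowest had a mean of 26.1 RPKM. Of the 8 listed with 2, 1 (PRC1) had a highest transcript below 10 RPKM. Of the 5 listed with 3 or more, 4 had a highest transcript below 10 RPKM, and CDK1, with 4 transcripts, was the exception at 49.5 RPKM. Over all genes in the files, the median level of the highest transcript was 6.82 RPKM for 10228 genes with 1 transcript. It was 6.75 RPKM for 3569 genes with 2 and 0.979 RPKM for 1404 genes with 3 or more. How reads shared by isoforms were counted is not given in the sources used here, so the levels of the 13 genes with more than 1 listed transcript are uncertain. The 2 transcripts of TTK, for example, were listed with 762 and 742 reads in the negative control.

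**Figure D3:**
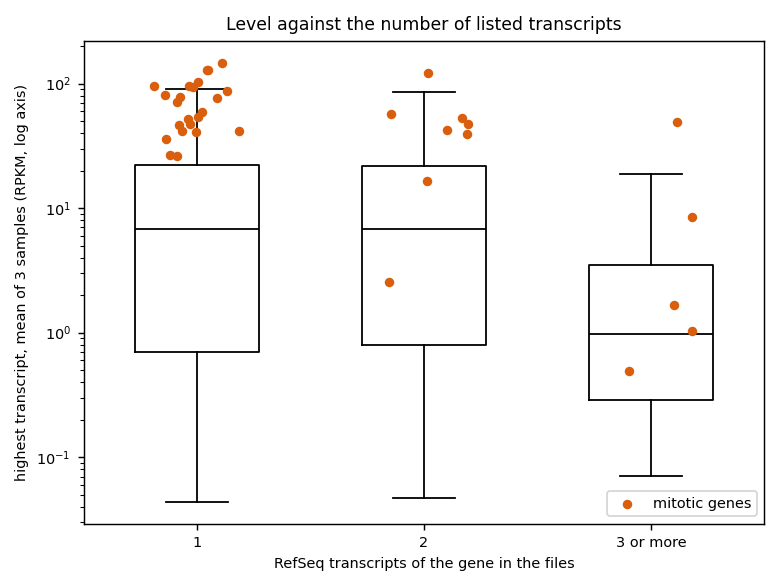
Mean level over the 3 samples of the highest transcript of each gene, in RPKM on a log axis, for genes with 1, 2 and 3 or more RefSeq transcripts in the files. Boxes show the quartiles and median of all genes and whiskers the 5th and 95th percentiles, and orange points are the mitotic genes. Of the 5 mitotic genes with 3 or more transcripts, 4 lie below 10 RPKM, and all 23 with 1 transcript lie above 26 RPKM.

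The comparison of BDE-209 with DMSO asks what the compound adds to its solvent. None of the 34 tested mitotic genes differed between these libraries beyond counting error (exact binomial test on recovered reads, two-sided, Benjamini-Hochberg over 16035 transcripts), where 0.212% of all transcripts were higher and 0.243% lower. At an unadjusted p under 0.05, 3 genes were higher (CENPF, ECT2 and ASPM; background 3.79%) and 1 was lower (ESPL1; background 3.89%). None met the rule of the study as rewritten here, a fold of at least 2 with a NOISeq probability of at least 0.6. The rewritten rule is not shown to call the genes that the software used in the study called, and 1.63% of 24608 transcripts met it as higher and 1.31% as lower. Among the 3121 transcripts with a mean of at least 500 reads, which held 22 of the mitotic genes, 0.545% were past counting error as higher and 0.641% as lower, so counts of 0 lay near the background. The median log2 ratio was -0.02, against 0.00 over all transcripts, with 16 genes higher and 18 lower (50.1% of all transcripts were higher). The reads summed over the tested genes gave a log2 ratio of 0.02, with a 95% counting interval (Clopper-Pearson) of 0.004 to 0.044. This sum weighs genes by their reads, and of its 40292 reads in BDE-209 MKI67 held 6740, CENPF 4732 and TOP2A 4143. The summed level of the 36 genes was 2078 RPKM in DMSO and 2079 in BDE-209. No gene reached a fold of 2 (background 0.942% higher and 0.705% lower). At the smaller limit of 0.32 on the log2 scale, no gene lay above it (background 8.98%) and 1 lay below -0.32 (background 8.91%).

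That gene was CDC25B, the phosphatase that starts CDK1 activation, with 1.90 RPKM in the negative control, 1.86 in DMSO and 1.27 in BDE-209. It rested on 34, 33 and 22 reads, and its log2 ratio of BDE-209 over DMSO was -0.55 with an interval of -1.40 to 0.27. Next lowest were AURKB at -0.16 and BIRC5 at -0.15, both of the chromosomal passenger complex. The highest ratios were those of CDC25C, a second phosphatase of CDK1, which had 16.6, 14.9 and 18.2 RPKM and a log2 ratio of 0.29 (-0.03 to 0.61), of NDC80 at 0.20 (-0.05 to 0.45) and of ECT2 at 0.17 (0.05 to 0.30). All of these failed the correction, with adjusted p from 0.378 (ECT2) to 0.975 (BIRC5) by the exact binomial test.

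The comparison of DMSO with the negative control asks what the solvent does. None of the 34 genes differed beyond counting error here either, where 0.811% of all transcripts were higher and 0.63% lower, and none met the rewritten rule (1.41% of 24589 transcripts higher, 1.46% lower). With a mean of at least 500 reads, 2.69% of transcripts were past counting error as higher and 2.24% as lower. At an unadjusted p under 0.05, 2 genes were higher (TOP2A and KIF23; background 5.65%) and 6 were lower (CCNB1, CCNB2, CCNA2, CDK1, CDC20 and KIF20A; background 4.64%). The median log2 ratio was 0.005, against 0.006 over all transcripts, with 17 genes higher and 17 lower (51.3% of all transcripts were higher). The log2 ratio of the summed reads was 0.005 with an interval of -0.015 to 0.025. PRC1, which bundles the microtubules of the central spindle, was the 1 gene above 0.32 on the log2 scale (background 9.34%), at 0.52 (-0.17 to 1.24) on 31 and 44 reads, and no gene lay below -0.32 (background 9.98%). None reached a fold of 2 (background 0.755% higher and 0.829% lower). PRC1 was followed by BIRC5 at 0.28 and KIF23 at 0.17, and the lowest ratios were -0.20 (CCNB2) and -0.19 (CDK1 and CDC20).

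The comparison of BDE-209 with the negative control holds compound and solvent together, and 4 of the 34 genes differed between these libraries beyond counting error. TOP2A, CENPF and ECT2 were higher and CDC20 was lower, against a background of 1.03% of all transcripts higher and 0.755% lower. Among the 3121 transcripts with a mean of at least 500 reads, where small differences can be seen, the background was 3.49% higher and 2.5% lower, for 3 and 1 of the 22. At an unadjusted p under 0.05, 4 were higher (background 5.67%) and 5 lower (background 5.08%). None met the rewritten rule (1.44% of 24661 transcripts higher, 1.42% lower). The median log2 ratio was 0.04, against 0.003 over all transcripts, with 20 genes higher and 14 lower (50.8% of all transcripts were higher). The summed reads, which weigh genes by their reads, gave 0.03 (0.009 to 0.049). The summed level of the 36 genes was 2099 RPKM in the negative control and 2079 in BDE-209. PRC1 was the 1 gene above 0.32 on the log2 scale (background 9.58%), at 0.38, and CDC25B the 1 below -0.32 (background 9.89%), at -0.58, and none reached a fold of 2 (background 0.742% higher and 0.886% lower). This comparison shares a library with each of the others, so the 3 sets of ratios are not independent.

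**Figure D4:**
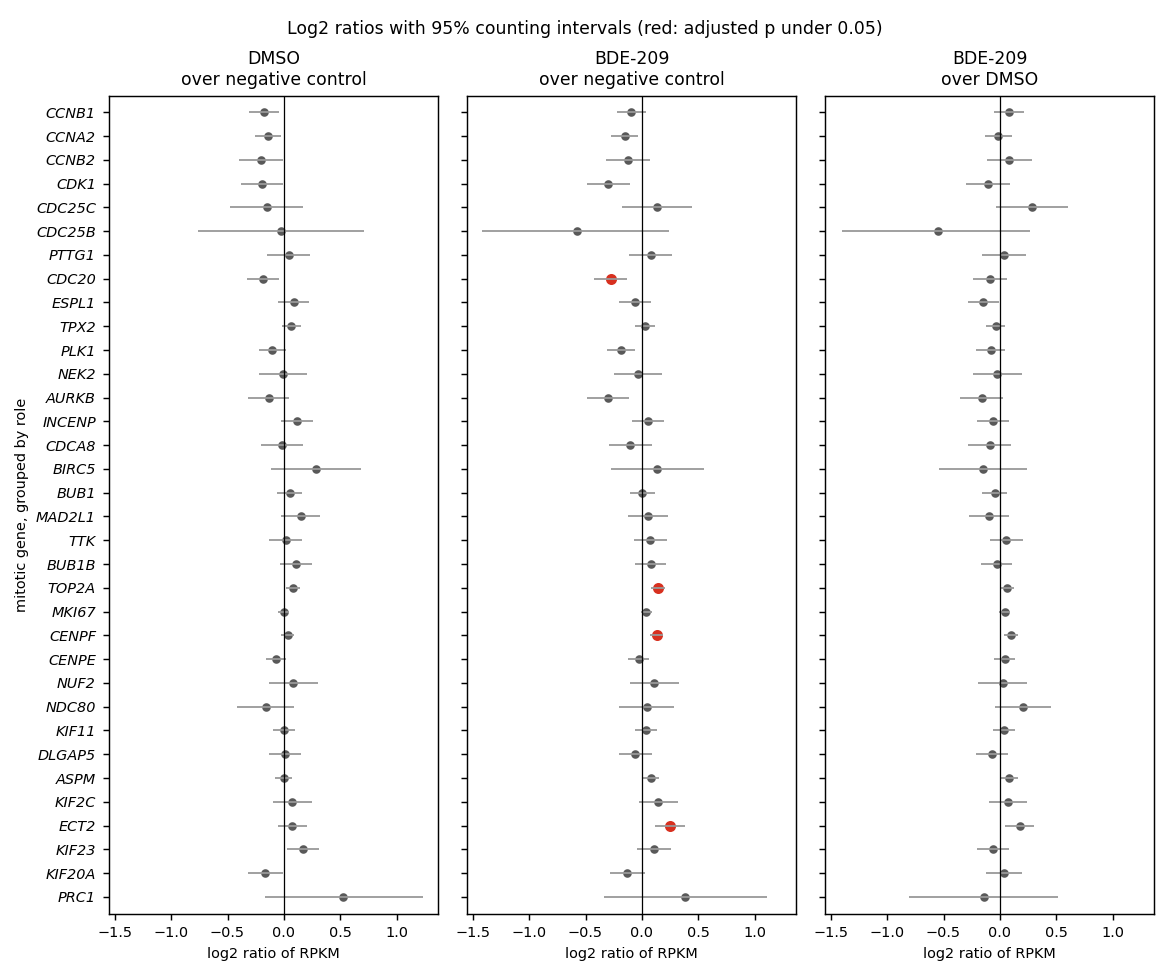
Log2 ratio of RPKM (points) with its 95% counting interval (bars) for the 34 tested mitotic genes in each pair of libraries, DMSO over negative control (left), BDE-209 over negative control (middle) and BDE-209 over DMSO (right). Red points mark an adjusted p under 0.05, which CDC20 (lower), TOP2A, CENPF and ECT2 (higher) reached in the middle panel only; the widest bars belong to CDC25B and PRC1.

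CDC20 (NM_001255, chr1:43824652-43828874, + strand), the protein that activates the anaphase-promoting complex, had 106.5 RPKM in the negative control, 93.4 in DMSO and 87.8 in BDE-209, from 875, 758 and 697 reads. The level was thus highest without solvent. Between BDE-209 and the negative control CDC20 fell by 17.5%, a log2 ratio of -0.28 (-0.42 to -0.13), with an adjusted p of 0.0146 by the exact binomial test. For DMSO over the negative control the log2 ratio was -0.19 (-0.33 to -0.05, adjusted p = 0.222 by the same exact test), and for BDE-209 over DMSO it was -0.09 (-0.24 to 0.06).

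TOP2A (NM_001067, chr17:38544777-38574148, - strand) had 139.6 RPKM in the negative control, 147.8 in DMSO and 154.0 in BDE-209, from 3890, 4067 and 4143 reads. BDE-209 was 10.3% above the negative control, a log2 ratio of 0.14 (0.08 to 0.20, adjusted p = 0.00179 by the exact binomial test). The DMSO sample lay between them, with log2 ratios of 0.08 to the negative control and 0.06 from DMSO to BDE-209. MKI67, listed beside it as the other marker of dividing cells, had 112.1, 112.0 and 115.2 RPKM, and its largest log2 ratio was 0.04.

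CENPF (NM_016343, chr1:214776528-214837917, + strand), a large kinetochore protein made in G2 and mitosis, had 89.7 RPKM in the negative control, 91.7 in DMSO and 98.1 in BDE-209, from 4482, 4525 and 4732 reads. Its BDE-209 level was 9.34% above the negative control, a log2 ratio of 0.13 (0.07 to 0.19, adjusted p = 0.00262 by the exact binomial test), and 6.93% above DMSO (0.04 to 0.16 on the log2 scale, adjusted p = 0.167 by the same exact test). ECT2 (NM_018098, chr3:172468472-172539264, + strand), the exchange factor that activates RhoA for the cleavage furrow, had 48.3, 50.9 and 57.4 RPKM from 916, 953 and 1051 reads. Its BDE-209 level was 18.8% above the negative control, a log2 ratio of 0.25 (0.12 to 0.38, adjusted p = 0.0135), and 12.8% above DMSO (adjusted p = 0.378, exact binomial test). All of these positions span the gene in GRCh37. In both genes the BDE-209 sample was the highest and the negative control the lowest.

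The group that starts mitosis held 3 cyclins, CDK1 and a pair of CDC25 phosphatases. CCNB1 (cyclin B1, NM_031966) had 101.6 RPKM in the negative control, 89.9 in DMSO and 95.2 in BDE-209. CCNB2 had 64.0, 55.5 and 58.7 RPKM, and CCNA2 (cyclin A2) had 93.4, 84.8 and 84.0 RPKM. CDK1 itself had 55.3, 48.4 and 44.9 RPKM. In all 4 of these the negative control was the highest sample. By the transcript taken for each, all 6 genes of the group, CDC25B and CDC25C included, lay lower in DMSO than in the negative control (51.3% of all transcripts were higher). Other listed transcripts lay both ways. NM_001170406 and NM_001170407 of CDK1 (each 21 and 29 reads) and NM_004358 of CDC25B (16 and 19 reads) were higher in DMSO. NM_033379 of CDK1, NM_021872 of CDC25B and NM_022809 of CDC25C were lower. The median log2 ratio of the 6 genes was -0.16 (range -0.20 to -0.02), against 0.006 over all transcripts. None was past counting error, and the summed level was 332.7 RPKM in the negative control, 295.4 in DMSO and 302.2 in BDE-209. Between BDE-209 and the negative control 5 of the 6 were lower, CDK1 most among the well-covered genes at -0.30 (-0.49 to -0.11, adjusted p = 0.0851 by the exact binomial test). Between BDE-209 and DMSO 3 were higher and 3 lower.

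The genes of anaphase control besides CDC20 are PTTG1 and ESPL1. PTTG1, securin, holds separase inactive, and had 125.9, 129.5 and 132.8 RPKM in the negative control, DMSO and BDE-209. ESPL1, separase, which cuts cohesin, had 26.3, 28.0 and 25.3 RPKM, and its log2 ratio of BDE-209 over DMSO was -0.15 (-0.29 to -0.01, adjusted p = 0.607 by the exact binomial test). Of these 3 genes CDC20 alone differed beyond counting error, in BDE-209 against the negative control.

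Of the mitotic kinases, PLK1, which acts from spindle poles to the midbody, had 109.0 RPKM in the negative control, 101.5 in DMSO and 95.9 in BDE-209. Its log2 ratio of BDE-209 over the negative control was -0.19 (-0.31 to -0.06, adjusted p = 0.111 by the exact binomial test). NEK2, a kinase that separates centrosomes, had 35.96, 35.7 and 35.1 RPKM, and TPX2 had 125.6, 131.5 and 127.9 RPKM. The levels of NEK2 and TPX2 lay within 5% of each other in any pair of libraries.

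The chromosomal passenger complex corrects attachments and steers cytokinesis. AURKB, its kinase, had 89.0 RPKM in the negative control, 80.9 in DMSO and 72.4 in BDE-209, from 540, 485 and 424 reads. Its log2 ratio of BDE-209 over the negative control was -0.30 (-0.49 to -0.11, adjusted p = 0.0693 by the exact binomial test). The scaffold INCENP had 40.4, 43.8 and 41.999 RPKM, borealin (CDCA8) 42.9, 42.5 and 39.9, and survivin (BIRC5) 7.70, 9.37 and 8.46 RPKM. By the transcript taken for each gene, all 4 were lower in BDE-209 than in DMSO (50.1% of all transcripts were higher). Their median log2 ratio was -0.12 (range -0.16 to -0.06), and none of the 4 was past counting error. Other listed transcripts lay both ways. NM_001012271 of BIRC5 had 6.37 RPKM in DMSO and 6.44 in BDE-209, from 83 and 82 reads. NM_001012270 of BIRC5 and NM_001040694 of INCENP were lower in BDE-209. The complex is assembled from these 4 proteins, and its kinase and its scaffold lay in different orders across the samples.

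The spindle checkpoint delays anaphase until chromosomes are attached. BUB1, a checkpoint kinase, had 77.3 RPKM in the negative control, 80.2 in DMSO and 77.5 in BDE-209. BUB1B (BubR1) had 45.5, 49.03 and 48.0 RPKM, the kinase TTK (MPS1) 52.3, 52.9 and 54.98 RPKM, and MAD2L1, which binds CDC20, 73.7, 81.7 and 76.4 RPKM. All 4 lay above the negative control in DMSO (median log2 ratio 0.08) and in BDE-209 (median 0.06), where 51.3% and 50.8% of all transcripts were higher. Both comparisons share the negative control library, and none of the 4 genes was past counting error. The widest of their ratios was that of MAD2L1 in DMSO over the negative control, at 0.15 (-0.03 to 0.32).

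At the kinetochore, the Ndc80 complex binds microtubules through NDC80 and NUF2. NDC80 had 26.8, 24.0 and 27.6 RPKM and NUF2 had 35.6, 37.7 and 38.4 RPKM in the negative control, DMSO and BDE-209. CENPE, a kinetochore motor, had 47.3, 45.0 and 46.4 RPKM. These 3 and CENPF were all higher in BDE-209 than in DMSO (50.1% of all transcripts were). Their median log2 ratio was 0.07 (range 0.02 to 0.20), none past counting error. Of the 15 other kinetochore genes that passed the filter, 8 were higher and 7 lower in this comparison, with a median of 0.02.

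Among the spindle motors and microtubule proteins, KIF11 (Eg5), which pushes the poles apart, had 70.4 RPKM in the negative control, 70.3 in DMSO and 72.1 in BDE-209. KIF2C, a microtubule depolymerase, had 39.7, 41.8 and 43.9 RPKM, with a log2 ratio of BDE-209 over the negative control of 0.15 (-0.02 to 0.32). DLGAP5 (HURP) had 57.2, 57.6 and 54.9 RPKM, and ASPM, a spindle pole protein, 52.9, 52.9 and 55.9 RPKM. No member of this group was past counting error in any pair of libraries.

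The cytokinesis genes besides ECT2 build the central spindle. The motor KIF20A (MKLP2) had 43.7 RPKM in the negative control, 39.0 in DMSO and 39.9 in BDE-209, and the motor KIF23 (MKLP1) had 42.02, 47.2 and 45.2 RPKM. Their log2 ratios of DMSO over the negative control were -0.17 (-0.32 to -0.01, adjusted p = 0.416) and 0.17 (0.02 to 0.31, adjusted p = 0.355, both by the exact binomial test), so neither was past counting error. PRC1 had 2.05, 2.94 and 2.67 RPKM.

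Of the 36 genes, 13 had their highest level in the negative control, 11 in DMSO and 12 in BDE-209, against 33.9%, 33.0% and 33.1% of all transcripts. The lowest level was in the negative control for 16, in DMSO for 9 and in BDE-209 for 11, against 35.9%, 31.9% and 32.2%.

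Base composition moved with the ratios of BDE-209 over DMSO. Of the 9 tested mitotic genes whose transcripts had a GC content over 50%, 1 was higher and 8 were lower, with a median log2 ratio of -0.09, and over all transcripts of that GC the median was -0.03. Of the 16 with a GC content under 42%, 10 were higher and 6 lower, with a median of 0.04, against 0.02 over all transcripts. Across the 34 genes Pearson's r between GC content and this log2 ratio was -0.50 and Spearman's rho was -0.45, and over 14637 transcripts they were -0.09 and -0.12. The genes share the same pair of libraries, so these are descriptions. For BDE-209 over the negative control r was -0.37 (rho -0.28), and for DMSO over the negative control 0.02 (rho -0.003). Of the 4 genes past counting error against the negative control, CDC20, which was lower, had a GC content of 56.9%, and ECT2 (36.3%), TOP2A (38.9%) and CENPF (40.8%), which were higher, had a lower one. Other genes lay the opposite way in that comparison: CDK1, with a GC content of 35.4%, had a log2 ratio of -0.30, and INCENP (58.8%) and BIRC5 (51.2%) had ratios of 0.06 and 0.14, none of them past counting error. The part of GC content in these results was not tested.

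**Figure D5:**
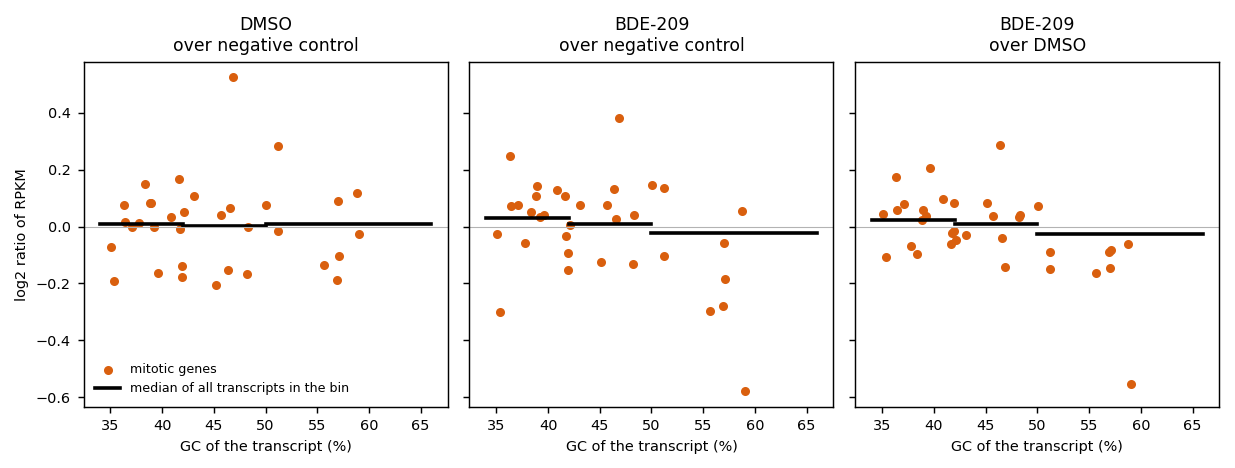
Log2 ratio of RPKM of the 34 tested mitotic genes (orange points) against the GC content of the transcript in percent, in each of the 3 comparisons, with black lines for the median of all transcripts under 42%, from 42 to 50% and over 50% GC. In the right panel (BDE-209 over DMSO) 8 of the 9 mitotic genes over 50% GC lie below 0.

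The partners of these genes were read from lists of their complexes and pathways. Of 15 genes of the anaphase-promoting complex and its ubiquitin enzymes, 12 passed the filter and none was past counting error in any comparison, with median log2 ratios of -0.05 (BDE-209 over DMSO), 0.06 (DMSO over the negative control) and 0.05 (BDE-209 over the negative control). Farthest from 0 were CDC26 at -0.20, ANAPC10 at 0.42 and ANAPC2 at -0.25 in the same order. Of 13 condensin and cohesin genes, 12 passed and 1 was past counting error. That gene was SMC1A, a core arm of the cohesin ring, with 98.2 RPKM in the negative control, 108.7 in DMSO and 112.1 in BDE-209. SMC1A was higher in DMSO than in the negative control by 0.15 on the log2 scale (0.09 to 0.20, adjusted p = 0.000134) and in BDE-209 by 0.19 (0.13 to 0.25, adjusted p = 4.22e-08, both by the exact binomial test). Between BDE-209 and DMSO the ratio of this list farthest from 0 was that of STAG2 at -0.65 (-1.27 to -0.04). It rested on 61 reads in DMSO (2.12 RPKM) and 38 in BDE-209 (1.35 RPKM), and no gene of the list was past counting error.

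Of 18 other kinetochore genes 15 passed and none was past counting error, and the ratios farthest from 0 were those of CENPM (-0.45 for BDE-209 over DMSO and -0.48 over the negative control) and CENPH (0.31 for DMSO over the negative control). The 12 regulators of mitotic gene transcription all passed and none was past counting error. FOXM1, a factor that drives mitotic genes, had 1.70 RPKM in the negative control, 3.32 in DMSO and 2.91 in BDE-209, from 29, 56 and 48 reads, with log2 ratios to the negative control of 0.97 (0.30 to 1.67, adjusted p = 0.131) and 0.78 (adjusted p = 0.329, both by the exact binomial test). Its log2 ratio of BDE-209 over DMSO was -0.19, also the farthest from 0 of the list. MYBL2 (B-MYB) had 150.8, 150.2 and 148.4 RPKM.

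Of 12 cyclins, CDKs and inhibitors of G1, 10 passed and none was past counting error, and CDKN1B (p27) was farthest from 0 in DMSO over the negative control (0.34) and in BDE-209 over DMSO (-0.29). CCND1 (cyclin D1) was farthest in BDE-209 over the negative control (-0.38). All 21 DNA replication genes passed and none was past counting error, with medians of -0.03 (BDE-209 over DMSO), 0.004 (DMSO over the negative control) and -0.02 (BDE-209 over the negative control). CDC45 was farthest at -0.24 and -0.26 in BDE-209 over DMSO and over the negative control, and CDT1 at 0.22 in DMSO over the negative control. Among the markers of the cell line VIM was lower in BDE-209 (261.0 RPKM) than in DMSO (295.8 RPKM), at -0.18 on the log2 scale (adjusted p = 0.00156), and than in the negative control (299.1 RPKM), at -0.20 (adjusted p = 8.03e-05, both by the exact binomial test). KRT18 was farthest in DMSO over the negative control at -0.14.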

How the data were processed

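One polyA-selected library was made from each of the negative control, DMSO and BDE-209 cultures. The authors mapped the single-end reads (49 bases) with SOAPaligner 2.21 on the hg19 build, accepted up to 2 mismatches and used uniquely mapped reads, and they deposited RPKM values per RefSeq transcript. A transcript absent from a table was taken as 0. The treatment of reads shared by isoforms is not given in the sources used here. SOAPaligner and the build are also named in the submitters' processing notes.

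RPKM values are steps of whole reads, so the read totals used to scale them and the reads per transcript were recovered from them (99.9% of 25443 transcripts). The length taken was the smallest that made all 3 values whole, or, where this was under 90% of the MANE length in GENCODE 44, a whole-read length within 5% of it (3 mitotic genes). With 1 read per kilobase worth 0.206 to 0.214 RPKM, a transcript with no read is below 3 reads. For a transcript of 1 kilobase this is 0.619 to 0.641 RPKM, and less for a longer one. Symbols were paired with 96.0% of transcripts.

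Read ratios were tested with a two-sided exact binomial test at the recovered totals, with Benjamini-Hochberg adjustment (threshold 0.05) over 16035 transcripts with a mean of at least 10 reads, and intervals are Clopper-Pearson at 95%. The study's rule was rewritten from NOISeq's simulation mode (5 simulated samples, 20% of the total, variation 2%, zeros as 0.5 RPKM). The study names its threshold a q-value, which was read here as the NOISeq probability, so these calls are those of the rewritten rule and not the study's own. On simulated data for BDE-209 against DMSO (15918 transcripts), the reads of 96.9% of transcripts were recovered exactly, and 10 unchanged transcripts were called. The simulated transcripts had the lengths recovered from the real values, so the 96.9% does not measure errors in those lengths. Changes were put only into a part of the simulated transcripts, all of them well covered by reads. Of these changes, 94% of the 1.5-fold and 99% of the 2-fold ones were called. The rates were not worked out by read count and leave out transcripts with few reads. They therefore do not give the power over all 15918 transcripts, or for genes with few reads, such as CDC25B and PRC1. Motifs were searched on both strands. The work was done in Python 3.11.15 with scipy 1.17.1 for the tests and matplotlib 3.10.9 for the plots.

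The named genes were all 36 mitotic genes, with those past counting error and the 3 highest and 3 lowest ratios in each comparison, and from each other list the genes past counting error or the 1 farthest from 0. The members and lists were chosen with earlier results of these data known. PTPRC, a listed leukocyte marker, has no values here because no transcript was matched to it by symbol.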

Additional observations from a re-analysis of the deposited data

How the results depend on the processing

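Of 60 recomputed values, 54 stayed within 1.5 times the main count or, for a median, within the counting error of the summed reads, and 6 moved. With a mean of at least 100 reads required, the median log2 ratio of BDE-209 over DMSO went from -0.019 to 0.0049, and the number of genes below -0.32 (log2) in BDE-209 over DMSO, above 0.32 in DMSO over the negative control, and above 0.32 or below -0.32 in BDE-209 over the negative control each went from 1 to 0, since that filter leaves out CDC25B and PRC1. With 0.5 RPKM added, the number above 0.32 in BDE-209 over the negative control also went from 1 to 0. The number of genes past counting error was 4 in BDE-209 against the negative control and 0 in the others under median-of-ratios scaling, filters of 1 and of 50 reads, adjustment over protein-coding transcripts only, and the smallest whole reads, an alternative chosen after seeing the data. The rewritten rule of the study gave 0 genes in each comparison under a probability of 0.8, the fold alone and the other scaling. A stricter probability cannot raise a count of 0, so that setting is no check, though its values are among the 54. No paired analysis was possible because each group was 1 sample, and for the same reason no sample could be left out. With 1 library per condition, differences between cultures, extractions and library preparations cannot be told apart from the treatments. For AURKA and HMMR the depth left counts of 4 to 8 reads.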
